A study of Homo sapiens with 75 samples.

Results

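The response of DHL6 cells to 6 h of R406 was measured on 6 arrays, 3 of cells treated with R406 for 6 h and 3 of cells given the vehicle DMSO for 6 h, out of 75 arrays in all. The arrays were chosen by the cell line, treatment and time in the sample labels, with no use of the measured values. DHL6 is an established line of diffuse large B-cell lymphoma, and the labels give no transgene, knockout or other agent for either group. Beside these 6 arrays, DHL6 was measured in DMSO at 0 h and in R406 and DMSO at 24 h, and DHL4, LY7, HBL1 and U2932 were each measured in the same 5 groups, with 3 arrays a group. The labels mark the replicates A, B and C and do not say whether they were separate cultures, so the spread behind each p-value is that between these arrays and may be only technical. No dose of R406 was stated in the labels. DHL6 is a single line, so it stands for itself and not for the lymphoma type.

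R406 inhibits SYK, a tyrosine kinase that binds the phosphorylated tails of the B-cell receptor and passes its signal on to calcium release and to the PI3K, ERK and NF-kB pathways. B cells and many B-cell lymphomas depend on this signal for survival and growth, and expression of genes downstream of the receptor can change within hours of its loss. R406 also inhibits other kinases, and the arrays do not tell the effect of one kinase from that of another.

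The deposited values are log2 expression values, so a difference of 1 between groups is a 2-fold difference in level. The deposited table gives genes only as Ensembl identifiers, and the gene table used here held an Ensembl identifier in 0 of its 59792 rows. No gene symbol is therefore given to any identifier, B-cell and other cell type markers and SYK itself were not analysed here, and no sequence could be matched. Described below are the gene classes, 4 identifiers taken by rank, and the control probe sets whose row labels name their transcript. Of 19536 genes, 11745 passed the filter on low values (the highest of the 25 group means above 5.89), and all tests were made over these. Across the 75 arrays the medians ran from 5.84 to 5.97 and the residual SD of single arrays from 0.0676 to 0.164. Among the 6 arrays the residual SD was 0.0704, 0.0704 and 0.0722 in R406 replicates A, B and C, against 0.118, 0.0853 and 0.0922 in DMSO replicates A, B and C. DMSO replicate A ranked 4 of 75 from the highest, and results that turn on it are given without it as well.

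R406 changed the level of a large share of the genes that DHL6 was tested for, mostly by small amounts. With limma's moderated test and Benjamini-Hochberg adjustment, 4662 of 11745 genes (39.7%) passed an adjusted p of 0.05. Of these, 2333 genes (19.9% of those tested) were higher in R406 and 2329 (19.8%) were lower. The scaling of the deposited values makes the distributions of arrays nearly equal, so the near equal split is not read as a trait of the response. After another scaling, cyclic loess, 2686 genes were called higher and 2032 lower. Called genes had a median log2 change of 0.31 in absolute size. A 2-fold or larger change was found for 84 genes higher in R406 (0.715% of those tested) and 93 lower (0.792%), and a 4-fold or larger change for 6 genes in each direction. The fold changes of all tested genes ran from -2.81 to 3.20 on the log2 scale, with 90% of them inside -0.43 to 0.47 and a median of -0.02. Without any model, every R406 array lay above every DMSO array for 2850 genes (24.3% of those tested), and every R406 array lay below every DMSO array for 2982 genes (25.4%).

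**Figure D1:**
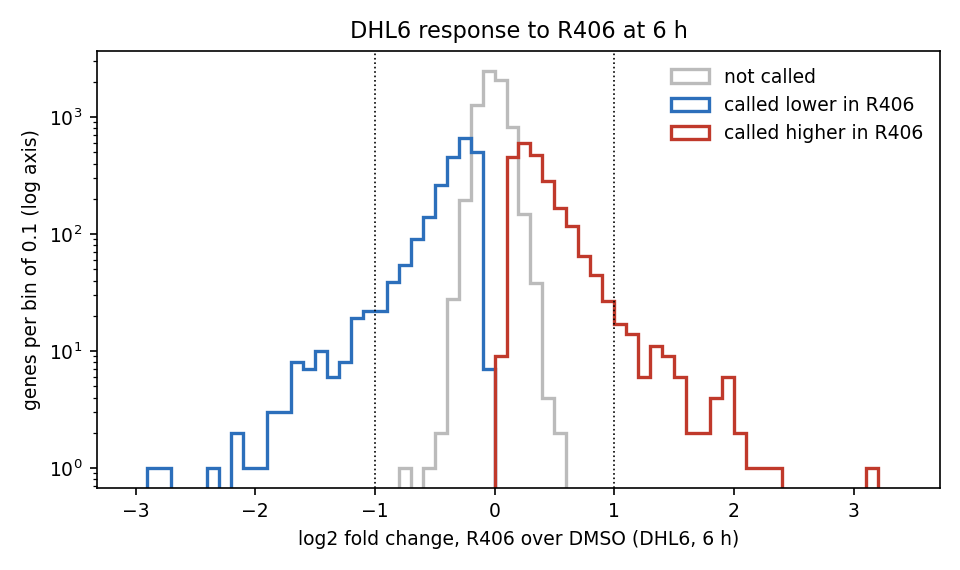
Number of genes (log axis) in bins of the log2 fold change of R406 over DMSO in DHL6 at 6 h, for genes called higher, called lower and not called. Dotted lines mark 2-fold, with 84 called genes at or beyond it on the higher side and 93 on the lower side, and the extremes are 3.20 and -2.81.

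Calls were counted by the size of the change. Among the 8551 genes that moved by less than 0.25 on the log2 scale, 1641 were called, 774 higher and 867 lower. Between 0.25 and 0.5, 2078 of 2247 genes were called, 1055 higher and 1023 lower. Between 0.5 and 1, 766 of 770 genes were called, 420 higher and 346 lower, and all 177 genes at 1 or more were called. Changes under 0.5 thus made up 35.2% (under 0.25) and 44.6% (0.25 to 0.5) of the 4662 calls.

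The calls were also counted by the level of the gene before treatment, and lower calls outnumbered higher ones in the class with the highest levels. Genes were split into 4 classes of near equal number by their mean in the 3 DHL6 arrays of DMSO at 0 h, which do not enter the comparison. In the class with the lowest levels (2.61 to 6.16), 357 genes were higher and 158 lower in R406, which is 17.5% of the 2937 genes there. In the next class (6.16 to 7.39), 576 genes were higher and 373 lower, and in the one above it (7.40 to 8.97), 759 were higher and 691 lower. In the class with the highest levels (8.97 to 14.61), 641 genes were higher and 1107 lower, so 59.5% of genes there were called against the 39.7% over all tested genes. Among 2-fold changes, 26 genes were higher and 8 lower in the lowest class, and 15 were higher and 42 lower in the highest class. The lowest class held genes under the filter level, where a fall has little room to be measured. A gene could also enter the test by its R406 mean at 6 h alone. The part of these limits was not tested, so the difference between classes does not show that the direction of response depends on level. The median standard error was 0.107 in the lowest class and 0.0522 in the highest, and its part in the counts was not tested. The classes were counted with the deposited scaling alone, and the part of the scaling in the direction by level was not tested. Of the 11745 genes, 1857 had both DHL6 means at 6 h at or under the filter level, and 229 of them were called.

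Identifiers are shown for the pairs with the highest and the lowest log2 fold changes among the 2104 higher and 2135 lower genes that met the naming rule (called, a higher mean above the filter level, and no overlap of the R406 and DMSO arrays). They were ranked by the same fold changes given here, so those fold changes describe the extremes of the table.

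ENSG00000092758 had the highest fold change. It read 9.25, 9.01 and 9.17 in the R406 arrays A, B and C, against 5.58, 6.24 and 6.01 in the DMSO arrays at 6 h. All 3 R406 arrays lay above all 3 DMSO arrays, and the DMSO arrays were the more spread out. R406 arrays averaged 9.14 ± 0.13 and DMSO arrays 5.94 ± 0.33 (SD, n = 3 each). The log2 fold change was 3.20 ± 0.11 (SE), or 9.18-fold, with an adjusted p of 9.53e-32 from limma.

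ENSG00000107537 came next. It read 8.72, 8.71 and 8.61 in R406, against 6.14, 6.42 and 6.53 in DMSO at 6 h, with no overlap. The means were 8.68 ± 0.06 in R406 and 6.36 ± 0.20 in DMSO (SD, n = 3 each), a log2 fold change of 2.32 ± 0.11 (SE), or 4.99-fold. The adjusted p from limma was 3.16e-25.

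ENSG00000187997 had the lowest fold change. It read 4.59, 5.10 and 4.57 in R406, against 7.63, 7.47 and 7.59 in DMSO at 6 h, and the groups did not overlap. Its R406 mean of 4.75 ± 0.30 (SD, n = 3) lay under the filter level of 5.89, while the DMSO mean was 7.57 ± 0.08 (SD, n = 3). The measured log2 fold change was -2.81 ± 0.11 (SE), with an adjusted p of 1.82e-29 from limma. Because the R406 level was close to the low values read in the other lines (group means of 3.67 to 4.63), the fold is given as at least 7.02-fold lower in R406.

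ENSG00000122877 had the second lowest measured value. It read 3.81, 3.48 and 3.90 in R406, also under the filter level, against 6.34, 6.44 and 6.61 in DMSO at 6 h, with no overlap. The means were 3.73 ± 0.22 in R406 and 6.46 ± 0.14 in DMSO (SD, n = 3 each), a measured log2 fold change of -2.73 ± 0.18 (SE). The adjusted p from limma was 2.13e-19. The group means of DHL4 and LY7 were 3.12 to 3.43, so the R406 level was close to the lowest that this probe set gave, and the fold is at least 6.65-fold lower in R406. The rank of this identifier among the lowest folds is therefore that of the measured values alone.

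**Figure D2:**
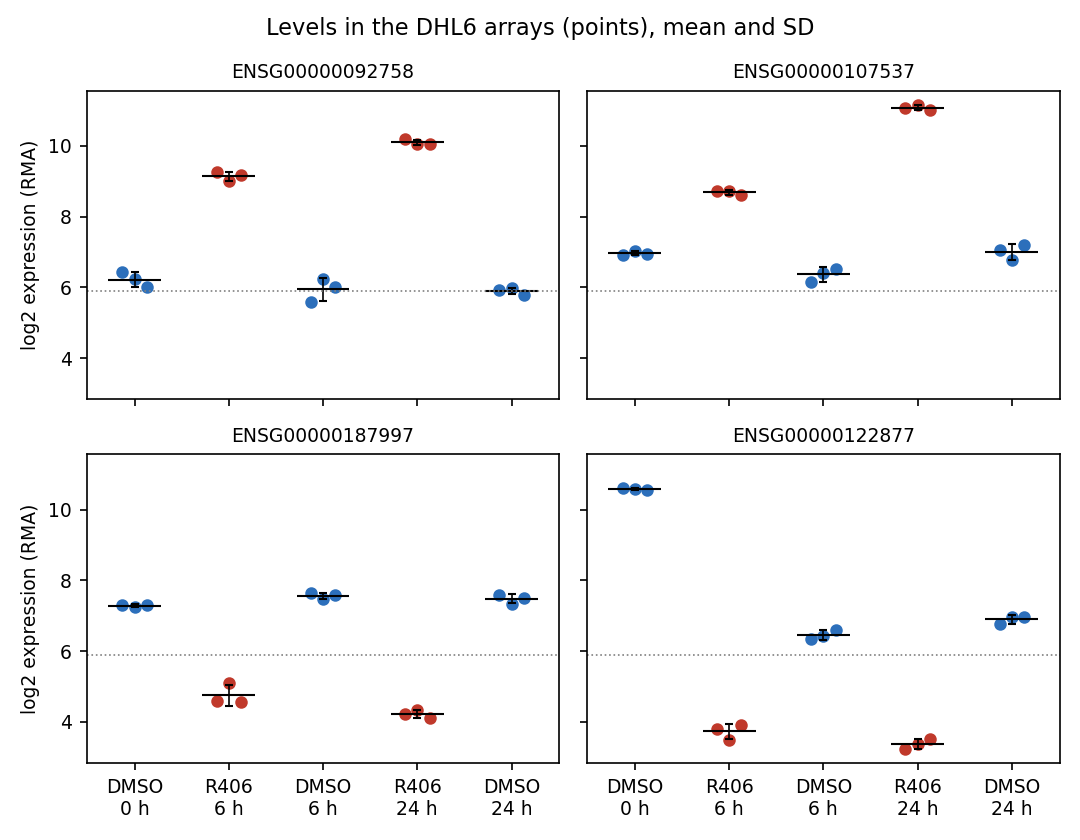
Log2 expression of the 4 identifiers in every DHL6 array (points), with mean and SD, by treatment and time, and the filter level as a dotted line. R406 arrays at 6 h lie at 9.01 to 9.25 for ENSG00000092758 and at 3.48 to 3.90 for ENSG00000122877, whose DMSO arrays were at 10.55 to 10.61 at 0 h and at 6.34 to 6.61 at 6 h.

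The vehicle arrays of DHL6 also changed with time in culture. In DMSO, 3144 genes (26.8%) differed between 6 h and 0 h, 1644 higher and 1500 lower at 6 h. This comparison uses the same DMSO arrays at 6 h as the response to R406, so the values are set side by side and not correlated. ENSG00000122877 read 10.61, 10.59 and 10.55 in DMSO at 0 h, so it had fallen in the vehicle by 4.12 on the log2 scale (adjusted p 9.24e-27 from limma) beside the difference of -2.73 with R406 at 6 h. Against DMSO at 0 h, its R406 arrays at 6 h differed by -6.85. ENSG00000107537 fell by 0.60 in the vehicle (adjusted p 1.67e-05 from limma), the opposite direction to its R406 response of 2.32. For ENSG00000092758 the vehicle difference was -0.28 (adjusted p 0.0511 from limma), and 6 of 15 alternatives called it, with adjusted p-values over all 15 of 0.00385 to 0.62. The lowest of these was without DMSO replicate B at 6 h, where the difference was -0.42. For ENSG00000187997 it was 0.28 (adjusted p 0.0474), and 11 of 14 alternatives lost that call. Without DMSO replicate A at 6 h it was 0.24 with an adjusted p of 0.151, the highest among them. Neither vehicle difference has a stable call.

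Of the 2-fold changes at 6 h, nearly all had a call of the same sign at 24 h. The arrays at 24 h are other arrays, although all groups share one variance estimate per gene. At 24 h, R406 arrays differed from DMSO arrays of the same time for 7135 genes (60.7%), 2961 higher and 4174 lower. The added controls also differed between these groups, and their values are given with the control probe sets. Of the 84 genes 2-fold or more higher in R406 at 6 h, 79 (94.0%) were called higher at 24 h, 2 were called lower and 3 were not called. Of the 93 genes 2-fold or more lower at 6 h, 92 (98.9%) were called lower at 24 h and 1 was not called. Over all tested genes, 25.2% were called higher and 35.5% lower at 24 h. The medians of the log2 fold change were 1.36 at 6 h and 1.55 at 24 h for the higher genes, and -1.28 at 6 h and -1.54 at 24 h for the lower genes.

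All called genes were followed to 24 h by their direction. Of the 2329 genes lower in R406 at 6 h, 1867 (80.2%) were lower at 24 h, 110 (4.72%) were higher and 352 (15.1%) were not called. These 1867 genes were 44.7% of all genes called lower at 24 h, while 35.5% of all tested genes were called lower then. Of the 2333 genes higher at 6 h, 1236 (53.0%) were higher at 24 h, 399 (17.1%) were lower and 698 (29.9%) were not called. These 1236 genes were 41.7% of the genes called higher at 24 h, while 25.2% of all tested genes were called higher then. The median log2 fold change of the lower genes was -0.30 at 6 h and -0.40 at 24 h, and that of the higher genes was 0.32 at 6 h and 0.18 at 24 h. Without DMSO replicate A at 6 h, the counts of genes that turned direction fell to 252 for higher and then lower (399 with it) and to 61 for lower and then higher (110 with it).

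**Figure D3:**
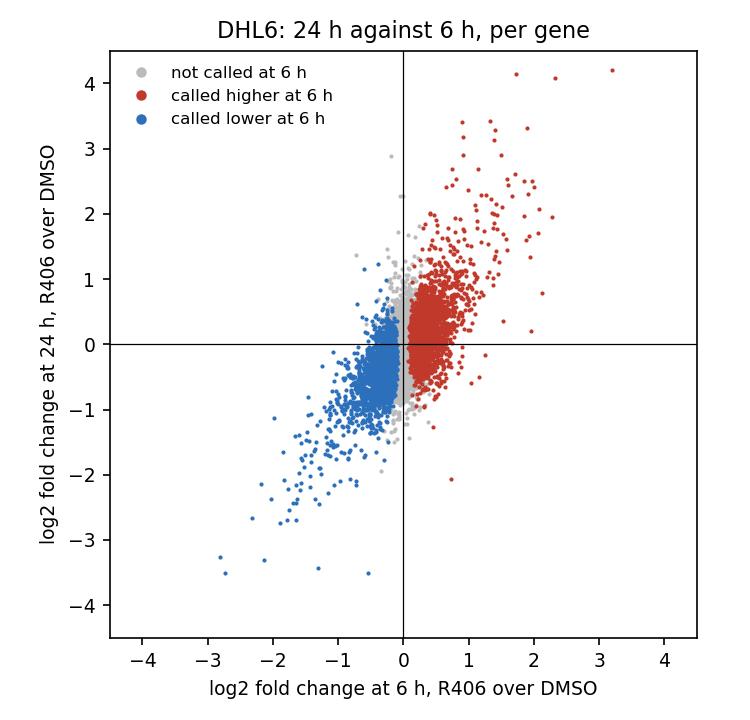
Log2 fold change of R406 over DMSO in DHL6 at 24 h (vertical) against 6 h (horizontal), 1 point per tested gene, coloured by the call at 6 h. Genes lower at 6 h lie mostly below 0 at 24 h (89.6% by sign), and 68.5% of genes higher at 6 h lie above 0 at 24 h.

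The change in response between the times was tested directly, as the response at 24 h minus that at 6 h. It differed for 4852 genes (41.3%), of which 1748 had a positive difference and 3104 a negative one, a positive share of 36.0%. With the median of each array subtracted, that share was 20.3%, and the share of higher calls at 24 h was 29.1% in place of 41.5%. The responses of ENSG00000092758 and ENSG00000107537 were larger at 24 h, by 1.00 ± 0.15 and 1.76 ± 0.15 (SE) on the log2 scale, with adjusted p-values from limma of 4.06e-07 and 1.25e-13. ENSG00000092758 read 10.18, 10.06 and 10.06 in R406 at 24 h, against 5.93, 5.98 and 5.80 in DMSO, a log2 fold change of 4.20. ENSG00000107537 read 11.06, 11.17 and 11.01 in R406 at 24 h, against 7.06, 6.76 and 7.19 in DMSO, a log2 fold change of 4.08. For ENSG00000122877 the difference was -0.78 ± 0.25 (SE; adjusted p 0.0103 from limma). Its R406 means were close to its lowest readings at both times (3.38 at 24 h and 3.73 at 6 h), while its DMSO means were 6.90 at 24 h and 6.46 at 6 h, so this value does not show a larger response at 24 h. For ENSG00000187997 the difference was -0.44 ± 0.15 (SE; adjusted p 0.0159 from limma), with R406 means of 4.22 at 24 h and 4.75 at 6 h, both under the filter level. Without R406 replicate B at 6 h, the highest of its R406 arrays, it was -0.27 with an adjusted p of 0.142.

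The response at 6 h was shared to different extents with the other lines, which share no array with DHL6 but share its variance estimate for each gene. The line DHL4 had 6140 called genes (52.3%), LY7 had 5623 (47.9%), U2932 had 3342 (28.5%) and HBL1 had 2623 (22.3%). Of the 2333 genes higher in DHL6, 1646 (70.6%) were called higher in DHL4, which is 54.9% of the 2998 genes higher there, while 25.5% of all tested genes were higher in DHL4. In LY7, 1454 (62.3%) were called higher, 48.7% of its 2988 higher genes, against 25.4% of all tested genes. In HBL1 it was 599 (25.7%), 45.8% of 1309, against 11.1% of all tested genes, and in U2932 it was 954 (40.9%), 45.4% of 2101, against 17.9%. By the number of genes called in all, and by the share of the DHL6 list called higher, the lines fell in the same order.

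Of the 2329 genes lower in DHL6, 1634 (70.2%) were lower in DHL4 (52.0% of its 3142 lower genes) and 1403 (60.2%) in LY7 (53.2% of 2635). In HBL1, 575 (24.7%) were lower (43.8% of 1314), and in U2932, 630 (27.0%) were lower (50.8% of 1241). Over all tested genes, the share called lower was 26.8% for DHL4, 22.4% for LY7, 11.2% for HBL1 and 10.6% for U2932.

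The 2-fold changes of DHL6 were also read in each line. Of the 84 genes 2-fold or more higher, 68 (81.0%) were called higher in DHL4 and 61 (72.6%) in LY7, but 18 (21.4%) in HBL1 and 31 (36.9%) in U2932. Over all tested genes the shares called higher were 25.5% (DHL4), 25.4% (LY7), 11.1% (HBL1) and 17.9% (U2932). Of the same 84 genes, 17 (20.2%) were called lower in each of HBL1 and U2932, against 11.2% and 10.6% of all tested genes. Their median log2 fold change was 1.36 in DHL6, against 1.04 (DHL4), 0.57 (LY7), 0.05 (HBL1) and 0.14 (U2932). Of the 93 genes 2-fold or more lower, 77 (82.8%) were called lower in DHL4, 57 (61.3%) in each of LY7 and U2932, and 48 (51.6%) in HBL1. Over all tested genes the shares called lower were 26.8% (DHL4), 22.4% (LY7), 10.6% (U2932) and 11.2% (HBL1). Their median was -1.28 in DHL6, against -0.79 (DHL4), -0.46 (LY7), -0.26 (HBL1) and -0.32 (U2932).

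**Figure D4:**
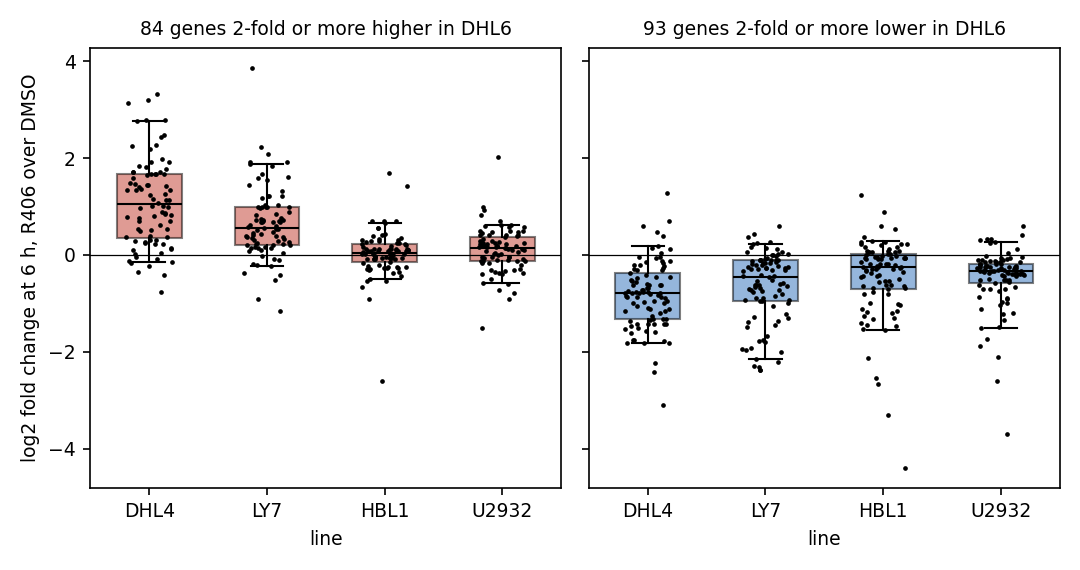
Log2 fold change of R406 over DMSO at 6 h in the other 4 lines for the 84 genes 2-fold or more higher and the 93 genes 2-fold or more lower in DHL6. The medians of the higher genes are 1.04 in DHL4 and 0.05 in HBL1, and those of the lower genes are -0.79 in DHL4 and -0.26 in HBL1.

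Counted over lines, 253 of the 2333 higher genes (10.8%) were called higher in all 4 other lines and 250 (10.7%) in none. Over all tested genes, 2.61% were called higher in all 4 other lines and 55.3% in none. Of the 2329 lower genes, 160 (6.87%) were called lower in all 4 and 352 (15.1%) in none, against 1.63% in all 4 and 58.8% in none over all tested genes. For lower genes the median log2 fold change in DHL6 was -0.23 where no other line shared the call and -0.48 where all 4 did, and the share still called lower at 24 h was 59.4% and 93.1% in those classes. For higher genes the share called higher at 24 h was 36.8% where no other line shared the call and 57.7% where all 4 did, with medians of 0.28 and 0.34 at 6 h. The level at 0 h moved with the sharing as well, with a median of 7.86 for lower genes shared with no line and 9.44 for those shared with all 4, and its part in the result was not tested.

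The difference between the DHL6 response and the mean response of the other 4 lines was tested for each gene. It passed for 2535 genes (21.6%), with 1145 more positive and 1390 more negative in DHL6, a positive share of 45.2%. After cyclic loess the positive share was 54.7%, so the majority direction of these differences turns with the scaling. ENSG00000187997 had the lowest difference of all tested genes, -2.65 ± 0.12 (SE; adjusted p 2.30e-25 from limma). Its response was -2.81 in DHL6, against -0.46 (DHL4), 0.01 (LY7), -0.04 (HBL1) and -0.14 (U2932). In those lines its group means were 3.67 to 4.63, all under the filter level, so a fall of the size in DHL6 could not be measured there. The difference of -2.65 therefore does not show that those lines responded less.

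ENSG00000092758 had a difference of 1.50 ± 0.12 (SE; adjusted p 4.75e-15 from limma) from the mean of the other lines. Its response was 3.20 in DHL6, against 0.26 (DHL4), 3.86 (LY7), 0.66 (HBL1) and 2.02 (U2932), and the LY7 value was the highest. ENSG00000107537 differed by 1.69 ± 0.12 (SE; adjusted p 8.37e-17 from limma), with 2.32 in DHL6, against 1.36 (DHL4), 0.57 (LY7), 0.10 (HBL1) and 0.48 (U2932). Its R406 and DMSO means at 6 h were 5.49 and 4.13 in DHL4, both under the filter level, and 5.91 and 5.43 in U2932. They were 12.24 and 11.68 in LY7, and 7.18 and 7.07 in HBL1. The part of these levels in the difference was not tested. ENSG00000122877 differed by -1.03 ± 0.20 (SE; adjusted p 6.35e-05 from limma), with -2.73 in DHL6, against 0.18 (DHL4), 0.00 (LY7), -4.39 (HBL1) and -2.61 (U2932). The levels of ENSG00000122877 in DHL4 and LY7 were under the filter level in every group, so no fall could be measured there. In DHL6, HBL1 and U2932 its R406 means were all low (3.73, 3.77 and 3.84), while the DMSO means were 6.46, 8.16 and 6.45. The measured folds of these lines therefore follow their DMSO levels, and the difference of -1.03 does not show that DHL6 responded more.

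Among the 15 genes with the highest fold changes that met the naming rule (1.85 to 3.20), 14 were called higher at 24 h. At 6 h the same call was made for 13 in each of DHL4 and LY7, 6 in U2932 and 3 in HBL1. Over all tested genes, 25.2% were called higher in DHL6 at 24 h. The shares called higher at 6 h were 25.5% (DHL4), 25.4% (LY7), 17.9% (U2932) and 11.1% (HBL1). Among the 15 with the lowest (-2.81 to -1.66), 15 were called lower at 24 h. At 6 h the same call was made for 13 in DHL4, 9 in HBL1, 7 in LY7 and 6 in U2932. Over all tested genes, 35.5% were called lower in DHL6 at 24 h. The shares called lower at 6 h were 26.8% (DHL4), 11.2% (HBL1), 22.4% (LY7) and 10.6% (U2932). In 7 of these 15 lower genes the R406 mean lay under the filter level, and in 5 of the 15 higher genes the DMSO mean did, so 1 side of those folds rests on low values.

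The control probe sets carry transcript names. Several probe sets for the RNAs of the ribosome read higher in R406, and beta-actin, the cytoskeletal actin, read lower. The probe set for the 5-prime part of 28S RNA, the large ribosomal RNA, read 13.54, 13.56 and 13.56 in R406, against 13.05, 12.70 and 12.70 in DMSO, a log2 fold change of 0.74 ± 0.06 (SE; adjusted p 6.80e-17 from limma). For 18S RNA, the small ribosomal RNA, the 3-prime set read 13.02, 13.19 and 13.15 in R406, against 12.64, 12.37 and 12.54 in DMSO (0.60 ± 0.11 SE; adjusted p 5.89e-06 from limma). Its 5-prime set read 12.86, 12.86 and 12.96 in R406, against 12.40, 12.44 and 12.61 in DMSO (0.41 ± 0.09 SE; adjusted p 0.000188). None of these 3 sets overlapped between groups. In DMSO alone the 28S 5-prime set rose by 0.38 from 0 h to 6 h (adjusted p 2.43e-07 from limma). The 18S 3-prime and 5-prime sets differed there by -0.06 and 0.07 (adjusted p 0.762 and 0.664).

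The other ribosomal sets had smaller values. The 28S middle set differed by 0.19 (adjusted p 0.00201 from limma, or 0.0577 in a fit of the DHL6 arrays alone), the 28S 3-prime set by 0.07 (adjusted p 0.629) and the 18S middle set by 0.26 (adjusted p 0.0471). The 18S middle arrays overlapped, and that call was lost at an adjusted p of 0.32 without DMSO replicate B. At 24 h the 28S 5-prime set differed by 1.79 (adjusted p 3.11e-34 from limma). The part of the ribosomal signal in the gene results was not tested.

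Beta-actin read lower in R406 at both the 3-prime and the middle set. The 3-prime set read 13.69, 13.77 and 13.69 in R406, against 13.97, 13.86 and 13.90 in DMSO (-0.19 ± 0.03 SE; adjusted p 3.53e-06 from limma). In DMSO alone this set rose by 0.10 from 0 h to 6 h (adjusted p 0.0260 from limma). The middle set read 12.84, 12.87 and 12.94 in R406, against 13.29, 13.05 and 13.16 in DMSO (-0.28 ± 0.06 SE; adjusted p 0.000244), and against DMSO at 0 h its difference was -0.12 (adjusted p 0.118). The 5-prime set differed by -0.25 (adjusted p 0.0502), and 8 of 17 alternatives called it, with adjusted p-values over all 17 of 0.0222 to 0.314. The 3-prime minus 5-prime value, a measure of RNA integrity, differed by 0.06 for beta-actin (adjusted p 0.729) and by -0.06 for GAPDH (adjusted p 0.0656). The GAPDH value was called in 3 of 17 alternatives, with adjusted p-values over all 17 of 0.0164 (without DMSO replicate C) to 0.427. GAPDH, an enzyme of glycolysis, differed by -0.05, 0.01 and 0.00 at its 3-prime, 5-prime and middle sets, with adjusted p-values of 0.116, 0.770 and 0.972. Each of these 3 sets was called in 1 of 17 alternatives, and the 5-prime and middle sets read higher in R406 there, after cyclic loess.

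ISGF3A, the alpha part of a transcription factor that acts after interferon, read higher in R406 at some of its sets. The 3-prime set read 8.48, 8.51 and 8.46 in R406, against 8.05, 8.31 and 8.27 in DMSO (0.27 ± 0.06 SE; adjusted p 0.000422 from limma). The middle set B differed by 0.47 ± 0.13 (SE; adjusted p 0.00171), and the middle set A by -0.01 (adjusted p 0.933). The 5-prime set, under the filter level, differed by 0.23 (adjusted p 0.0177). That call was lost in 5 of 17 alternatives, such as without DMSO replicate A (adjusted p 0.0971). Against DMSO at 0 h the 5-prime difference was 0.05 (adjusted p 0.640).

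Added controls give a measure of the arrays themselves. The hybridisation controls differed by -0.03 (adjusted p 0.802 from limma). The poly-A spike-ins, RNAs added during labelling, averaged 7.98, 7.68 and 7.72 in R406, against 7.07, 7.27 and 7.67 in DMSO, a difference of 0.46 ± 0.13 (SE; adjusted p 0.00251 from limma). Without DMSO replicate A that difference was 0.33 with an adjusted p of 0.0613. Against DMSO at 0 h the spike-in difference was 0.23 with an adjusted p of 0.140. At 24 h the hybridisation controls differed between R406 and DMSO by 0.61 (adjusted p 1.36e-09 from limma). The spike-ins differed by 0.69 at that time (adjusted p 5.42e-06 from limma). The beta-actin 3-prime minus 5-prime value differed by 0.45 at 24 h (adjusted p 0.000284 from limma). Those of GAPDH and ISGF3A differed by -0.01 (adjusted p 0.784) and -0.21 (adjusted p 0.0949). The part of these controls in the gene results at 6 h and at 24 h was not tested.

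**Figure D5:**
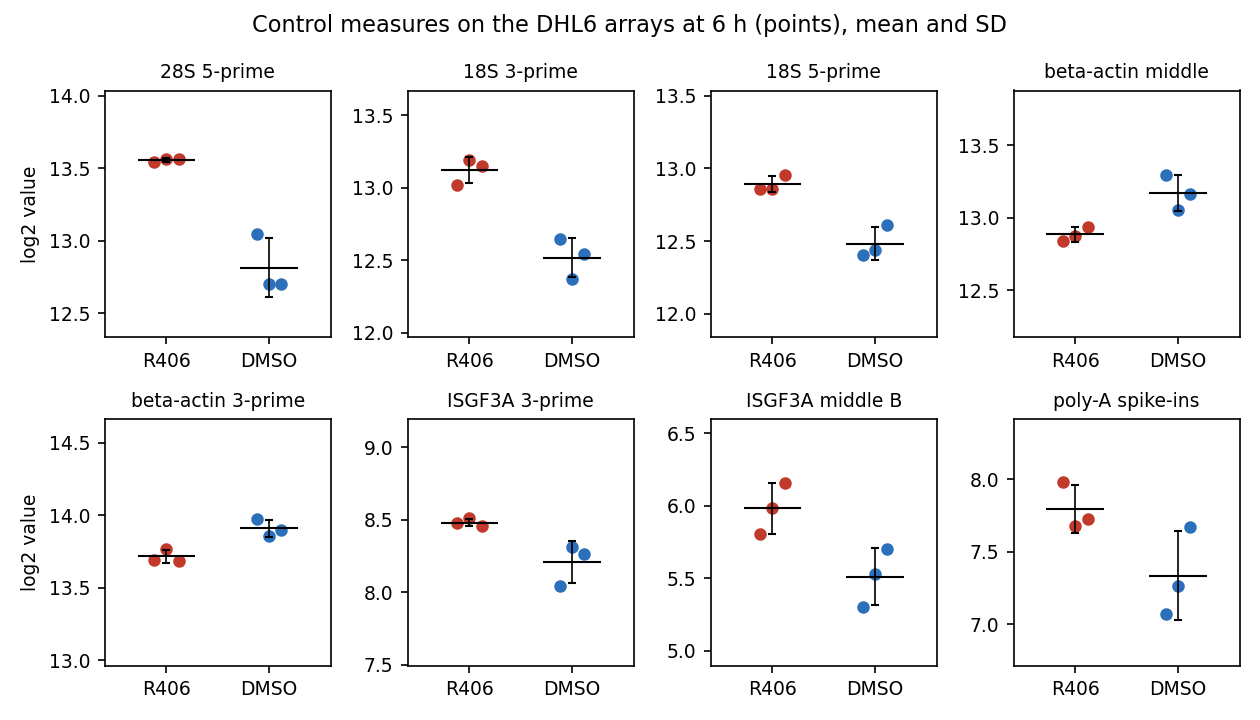
Log2 values of control measures on the 6 DHL6 arrays at 6 h (points), R406 left of DMSO, with mean and SD. The 28S 5-prime set lies at 13.54 to 13.56 in R406 and 12.70 to 13.05 in DMSO, and the beta-actin 3-prime set at 13.69 to 13.77 in R406 and 13.86 to 13.97 in DMSO.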

How the data were processed

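Total RNA was biotin-labelled and hybridised to Affymetrix HT HG-U133 Plus arrays, 1 per sample. Per the submitters' processing notes the authors used RMA, with no version stated, and the deposited values are on its log2 scale. RMA makes the distributions of arrays nearly equal, so a change of most transcripts in 1 direction may not show as a shift of the array. The table has 19598 rows, 19536 genes and 62 control probe sets, and 0 array pairs were identical.

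Genes were kept where at least 1 of 25 group means exceeded the median of the table, 5.89 (11745 kept, 7791 removed). One mean per group was fitted to 75 arrays with limma 3.58.1 in R 4.3.3 (50 residual degrees of freedom). Two-sided moderated tests (eBayes) were made for each contrast, and p-values were adjusted by Benjamini-Hochberg. The threshold was 0.05. Control measures used the genes' variance prior and were adjusted together with the genes. The scripts were tested on simulated data. Figures were drawn in Python 3.11.15.

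The named-gene rule took the 15 highest and 15 lowest fold changes among genes with a symbol, further genes from 30 lists, and SYK and its partners. With 0 identifiers matched to a symbol, these lists were not analysed, and the 2 highest and 2 lowest identifiers under the rule are given. The comparisons, lists and rule were chosen with earlier results of these data known. Arrays hold no count of molecules, and their number limits the precision. Alternatives were other scalings, filters, priors, array weights, a replicate block, subsets of arrays, the 0 h control and leaving out each array.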

Additional observations from a re-analysis of the deposited data

Results flagged for a closer look

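The response of DHL6 at 6 h differed from the mean response of the other 4 lines for 2535 genes, and the DHL6 response at 24 h differed from that at 6 h for 4852 genes, each by a test of the difference itself in limma. The 4 identifiers met both tests. The difference from the other lines was 1.50 for ENSG00000092758, 1.69 for ENSG00000107537, -2.65 for ENSG00000187997 and -1.03 for ENSG00000122877 on the log2 scale. The difference of 24 h minus 6 h was 1.00 for ENSG00000092758, 1.76 for ENSG00000107537, -0.44 for ENSG00000187997 and -0.78 for ENSG00000122877. Each identifier was taken for its fold change at 6 h in DHL6, which enters both differences, so these values describe and give no independent support. For ENSG00000187997 the R406 means were under the filter level at both times (4.75 at 6 h and 4.22 at 24 h). Its difference between times lost the call without R406 replicate B at 6 h (adjusted p 0.142 from limma), so a larger response at 24 h is not shown. For ENSG00000122877 the R406 levels were close to the lowest readings, so its difference between times does not show a larger response at 24 h. By the same limit, the difference of ENSG00000122877 from the other lines does not show that DHL6 responded more. All group means of ENSG00000187997 in the other lines were under the filter level. A fall of the size in DHL6 could not be measured there, so the difference of -2.65 does not show that those lines responded less.

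For several control probe sets the DHL6 response at 6 h differed from the mean over the other 4 lines, which themselves did not move together. The difference was 0.79 for the 28S 5-prime set (adjusted p 1.54e-15 from limma). That set changed by 0.74 in DHL6, against 0.37 (DHL4), 0.35 (U2932), 0.19 (HBL1) and -1.12 (LY7), so a higher reading in R406 was not limited to DHL6 and LY7 lowered the mean. The 28S middle set differed by 0.20 (adjusted p 0.00909, or 0.0595 without DHL6 DMSO replicate B and 0.0587 without DHL6 R406 replicate C). It changed by 0.19 in DHL6, against 0.35 (U2932), 0.11 (DHL4), 0.02 (HBL1) and -0.50 (LY7), and the U2932 value was above that of DHL6.

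For 18S the difference was 0.63 at the 3-prime set, 0.47 at the 5-prime set and 0.38 at the middle set. The changes of the 3-prime set were 0.60 in DHL6, against 0.03 (DHL4), -0.01 (U2932), -0.04 (HBL1) and -0.09 (LY7). Those of the 5-prime set were 0.41 in DHL6, against 0.06 (DHL4), -0.02 (HBL1), -0.11 (U2932) and -0.15 (LY7). The middle set had 0.26 in DHL6, against 0.04 (DHL4), -0.06 (HBL1), -0.08 (U2932) and -0.39 (LY7). Its difference had an adjusted p of 0.0149, which became 0.126 without DHL6 DMSO replicate B and 0.0904 without DHL6 R406 replicate C.

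For ISGF3A the difference was 0.26 at the 3-prime set, 0.37 at the 5-prime set and 0.57 at the middle set B. The 3-prime set changed by 0.27 in DHL6 and by the same amount in U2932, against 0.17 (DHL4), -0.10 (LY7) and -0.27 (HBL1). Its difference was 0.17 with an adjusted p of 0.108 without DHL6 DMSO replicate A. The 5-prime set had 0.23 in DHL6, against 0.10 (U2932), -0.02 (DHL4), -0.25 (HBL1) and -0.38 (LY7). The middle set B had 0.47 in DHL6, against 0.27 (U2932), 0.18 (DHL4), -0.34 (LY7) and -0.51 (HBL1). No group of 3 arrays was tested for a single array far from the others.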

How the results depend on the processing

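The 4662 calls at 6 h lay between 3928 and 4623 when 1 array was left out, and the 2-fold counts between 75 and 90 (higher) and 90 and 95 (lower). The counts ran from 6466 to 6993 at 24 h, 4113 to 5011 for 24 h minus 6 h, 1938 to 2697 for DHL6 minus the other lines, and 2699 to 2871 for DMSO at 6 h against 0 h. The lowest counts at 6 h (3928), for 24 h minus 6 h (4113) and for DHL6 minus the other lines (1938) were those without DHL6 DMSO replicate A at 6 h. With array weights the counts were 5611 at 6 h and 3716 for DHL6 minus the other lines. With a 2-fold threshold the counts were 177 at 6 h (84 higher, 93 lower), 85 for DHL6 minus the other lines, 177 for 24 h minus 6 h, 410 at 24 h and 60 in the vehicle. With DMSO at 0 h as the control, 144 genes were 2-fold or more higher and 175 lower in R406. The share of higher calls at 6 h was 50.0%, and 56.9% after cyclic loess. Without the filter, 52.6% of the calls at 24 h were higher, in place of 41.5%, so the majority direction at 24 h depends on the low genes. Genes lower at 6 h and higher at 24 h numbered 47 with medians subtracted, in place of 110. The GAPDH middle set differed by 0.076 after cyclic loess (adjusted p 0.0217 from limma), with the sign turned, and the cause was not tested. The 4 identifiers kept their direction and call at 6 h under every alternative run in which they were tested, the lowest absolute log2 change being 1.72 (ENSG00000107537 against DMSO at 0 h). Over all alternatives, 401 values of the identifiers kept direction and call, 12 lost the call and 6 gained it.

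Samples with the same letter deviated together at r of 0.141 (A), 0.0495 (B) and 0.0455 (C), so the letters were not taken as pairs. With the letter as a replicate block the count at 6 h was 4676.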
